A study of Mus musculus with 4 samples.

Results

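The genes described here are 10 genes that mark microglia, the resident macrophages of the brain: the complement genes C1qa, C1qb and C1qc, the adaptor and receptor genes Tyrobp, Fcer1g, Trem2, Csf1r and Cx3cr1, the lysosomal protease gene Ctss, and Aif1, which encodes the microglial marker protein IBA1. Their probe sets were taken by name, as every probe set whose platform annotation gave 1 of these symbols and no other, which yielded 16 of 45037 probe sets. Of these, 13 probe sets of 9 genes had a mean log2 signal above the 40th percentile of all probe sets and entered the test. The other 3 were both Trem2 probe sets and 1 of 2 for Cx3cr1.

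The samples were total RNA of hippocampi dissected from mouse pups at postnatal day 2, hybridised to 4 Affymetrix arrays. There were 2 arrays labelled Zbtb20 knockout, a loss of a zinc finger transcription factor, and 2 labelled wildtype, from littermate controls. The labels do not state the knockout allele, the strain, the sex or whether an array held 1 pup or a pool, nor whether the 2 arrays of a group stem from different pups, so p-values measure only the spread between these samples, which may be technical. Values are MAS5 signals on a linear scale, and differences are given as knockout minus control of log2(signal + 32.56), which understates the change of dim probe sets.

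The arrays came on 2 scales that follow the replicate number. The mean signal after trimming 2% at each end was 497 (knockout) and 498 (control) in replicate 1, whereas replicate 2 had 156 (knockout) and 158 (control). Members were therefore compared within each replicate number, where 1 array stands against 1 array and no p-value exists. No Zbtb20 probe set (0 of 9) had a lower signal under the knockout label in both replicates, and their place relative to the deleted part is unknown here. The widest differences were at 1443471_at, with 2412 on the knockout and 4939 on the control array of replicate 1, and 592 on the knockout and 284 on the control array of replicate 2. Directions below follow the labels as given, and knockout and control stand for the arrays labelled so. Whether the labels of 1 replicate were exchanged was not tested, and every direction given for that replicate would then turn.

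Microglia arise from yolk sac macrophages, enter the brain in embryonic life and depend on the receptor CSF1R for survival. In the early postnatal hippocampus they clear dying cells and excess synapses. C1q, built from the chains encoded by C1qa, C1qb and C1qc, is the recognition unit of the classical complement pathway and tags synapses for removal, and in the brain it is made mostly by microglia. TYROBP (DAP12) and FCER1G are membrane adaptors with an immunoreceptor tyrosine-based activation motif (ITAM). They carry the signal of receptors such as TREM2 and the Fc receptors to the kinase SYK. In bulk tissue, fewer microglia and less RNA per microglial cell cannot be told apart.

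The 3 C1q genes are consecutive coding genes on mouse chromosome 4, in the order C1qb, C1qc and C1qa. Promoters of 7 of the 10 members were matched by symbol in a RefSeq table (build GRCm38.p6), each 250 bases before to 50 bases after the gene's start. The promoters of C1qb (chr4:136886151-136886450, minus strand), C1qc (chr4:136892865-136893164, minus strand) and Ctss (chr3:95526536-95526835, plus strand) are shown since C1qc and Ctss were among the members with the widest replicate 2 differences and C1qb is the neighbour of C1qc. That of Cx3cr1 (chr9:120068247-120068546, minus strand) is shown as a member whose probe set over the filter had small differences in both replicates. The brightest C1qb probe set also had small differences, 0.16 and -0.11. Promoters of C1qa, Tyrobp and Csf1r were not among the 7. Each is written 5′ to 3′ on the gene's strand. Capitals mark GAGGAA or its reverse complement TTCCTC, letters that form part of the site of PU.1, the transcription factor that specifies macrophages.
C1qb: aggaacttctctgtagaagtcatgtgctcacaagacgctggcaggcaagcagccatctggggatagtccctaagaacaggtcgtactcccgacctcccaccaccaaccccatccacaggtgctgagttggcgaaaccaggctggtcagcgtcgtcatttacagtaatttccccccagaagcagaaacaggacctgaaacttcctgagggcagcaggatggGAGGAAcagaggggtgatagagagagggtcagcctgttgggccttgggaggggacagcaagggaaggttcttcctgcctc
C1qc: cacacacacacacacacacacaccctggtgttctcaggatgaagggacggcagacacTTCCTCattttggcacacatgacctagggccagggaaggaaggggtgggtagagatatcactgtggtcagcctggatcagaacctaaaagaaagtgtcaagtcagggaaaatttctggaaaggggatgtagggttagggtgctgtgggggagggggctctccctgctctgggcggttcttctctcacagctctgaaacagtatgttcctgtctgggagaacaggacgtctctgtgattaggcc
Ctss: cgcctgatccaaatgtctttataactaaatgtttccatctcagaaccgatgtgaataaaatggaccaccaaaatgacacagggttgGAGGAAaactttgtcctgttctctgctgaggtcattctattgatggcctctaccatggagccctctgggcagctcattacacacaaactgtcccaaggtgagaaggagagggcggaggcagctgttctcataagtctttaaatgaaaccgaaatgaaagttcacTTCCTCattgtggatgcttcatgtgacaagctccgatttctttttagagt
Cx3cr1: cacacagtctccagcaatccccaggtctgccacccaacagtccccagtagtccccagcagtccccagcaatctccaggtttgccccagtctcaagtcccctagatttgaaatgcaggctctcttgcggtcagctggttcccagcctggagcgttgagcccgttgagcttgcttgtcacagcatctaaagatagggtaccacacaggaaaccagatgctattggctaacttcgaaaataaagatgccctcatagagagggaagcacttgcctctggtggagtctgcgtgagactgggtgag

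The letters GAGGAA, searched on both strands, were found in 5 of 7 member promoters, those of C1qb, C1qc, Trem2, Ctss and Aif1. They were found in 28.3% of the 32851 promoters of the table. The C1qb match began 30 bases before the gene's start and the C1qc match 193 bases before it. Ctss held 2 matches, where 4.82% of all promoters hold at least 2, and Cx3cr1 and Fcer1g held 0. C1qc and Ctss shared a 12-base run around a match, CACTTCCTCATT, on the same strand, beginning 196 and 3 bases before the start. It was picked after the sequences were seen, and 12 promoters (0.0365%) hold it on either strand. These are descriptions of letters, with no measure of binding.

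The complement genes were lower in the knockout array of replicate 2, and only C1qa and the dimmest C1qb probe set were also clearly lower in that of replicate 1. C1qa (1417381_at) had signals of 459.9 on the knockout and 604.1 on the control array of replicate 1, and of 99.4 on the knockout and 181 on the control array of replicate 2. The knockout array was thus lower in both replicates, by log2 -0.37 and -0.70, with a mean of -0.53 ± 0.23 (SD, n = 2 differences). C1qc (1449401_at) had 407.8 on the knockout and 394.1 on the control array of replicate 1, and 73.7 on the knockout and 159.6 on the control array of replicate 2. It stood level in replicate 1 (0.05) and had the widest replicate 2 difference among the members (-0.85), where the knockout signal was 0.462 of the control signal. Its mean was -0.40 ± 0.64 (SD, n = 2 differences).

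C1qb was measured by 3 probe sets that disagreed. The brightest, 1417063_at, had 588 on the knockout and 523.1 on the control array of replicate 1, and 248 on the knockout and 270 on the control array of replicate 2. Its differences were small and of opposite sign, at log2 0.16 and -0.11. The 1434366_x_at probe set had 181.6 on the knockout and 179.8 on the control array of replicate 1 (0.01), and 47.9 on the knockout and 93.6 on the control array of replicate 2 (-0.65). The 1437726_x_at probe set had 120.3 on the knockout and 218.6 on the control array of replicate 1 (-0.72), and 40.6 on the knockout and 63.3 on the control array of replicate 2 (-0.39). Both carry the suffix that Affymetrix gives to sets whose probes may match other transcripts, and in replicate 2 both knockout signals lay below the array median of 75.8. The direction of C1qb in replicate 1 therefore depended on the probe set.

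Among the adaptors, Tyrobp was lower in the knockout array of both replicates and Fcer1g differed in opposite directions. Tyrobp (1450792_at) had 430.6 on the knockout and 636.2 on the control array of replicate 1, and 52.8 on the knockout and 91.2 on the control array of replicate 2. Its differences were log2 -0.53 and -0.54, with a mean of -0.53 ± 0.0049 (SD, n = 2 differences). The closeness of these 2 values depended on the scale. The knockout signal was 0.677 of the control signal in replicate 1 and 0.578 in replicate 2. The differences were -0.48 and -0.97 with quantile normalization and -0.56 and -0.79 with a floor of 1 without pseudocount. They were -0.50 and -0.60 with all arrays at 1 trimmed mean, and -0.50 and -0.41 with a pseudocount at the 40th percentile. The replicate 2 knockout signals of Tyrobp and C1qc lay below the array median of 75.8. Fcer1g (1418340_at) had 171.2 on the knockout and 237.8 on the control array of replicate 1, and 149 on the knockout and 102 on the control array of replicate 2. It was thus lower in the knockout array of replicate 1 (-0.41) and higher in that of replicate 2 (0.44), and besides Cx3cr1 it was the only member gene over the filter that was higher there.

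The receptor genes gave small differences or dim signals. Csf1r, the receptor for the survival factors CSF1 and IL-34, had 3 probe sets. The brightest, 1419872_at, had 2131.5 on the knockout and 2122.5 on the control array of replicate 1, and 334 on the knockout and 388 on the control array of replicate 2. Its differences were log2 0.01 and -0.20. The other two had 547.2 against 500.9 and 455.1 against 534.9 in replicate 1 (0.12 and -0.22), and 119.9 against 147 and 124 against 126 in replicate 2 (-0.24 and -0.02), knockout against control. All 3 were lower in the knockout array of replicate 2, and their signs differed in replicate 1.

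Cx3cr1, the receptor for the neuronal chemokine fractalkine, had 221.1 on the knockout and 200.4 on the control array of replicate 1 at 1450020_at, and 216 on the knockout and 207 on the control array of replicate 2. It was slightly higher in the knockout array of both replicates, by 0.12 and 0.05. Its other probe set, 1450019_at, did not pass the filter and had 47.9 and 82.3 in replicate 1 and 42.1 and 38.8 in replicate 2, knockout before control. Trem2, a receptor for lipids and apolipoproteins that signals through TYROBP, did not pass the filter with either probe set. The 1421226_at probe set had 42.2 on the knockout and 79.5 on the control array of replicate 1, and 69.4 on the knockout and 65.9 on the control array of replicate 2. The 1421792_s_at probe set had 7.8 on the knockout and 77.7 on the control array of replicate 1, and 59.5 on the knockout and 69.9 on the control array of replicate 2. All 8 Trem2 signals lay below the median of their array, so no level of Trem2 is read from them.

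Ctss encodes cathepsin S, a lysosomal cysteine protease that trims the invariant chain of MHC class II. Its probe set 1448591_at had 868.6 on the knockout and 967.9 on the control array of replicate 1, and 172 on the knockout and 298 on the control array of replicate 2. It was lower in the knockout array of both, by log2 -0.15 and -0.69, with a mean of -0.42 ± 0.38 (SD, n = 2 differences). Aif1 (1418204_s_at) had 125.4 on the knockout and 65 on the control array of replicate 1, and 44 on the knockout and 60.1 on the control array of replicate 2. Its differences were 0.70 and -0.28. Its signal lay below the array median on all 4 arrays.

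**Figure D1:**
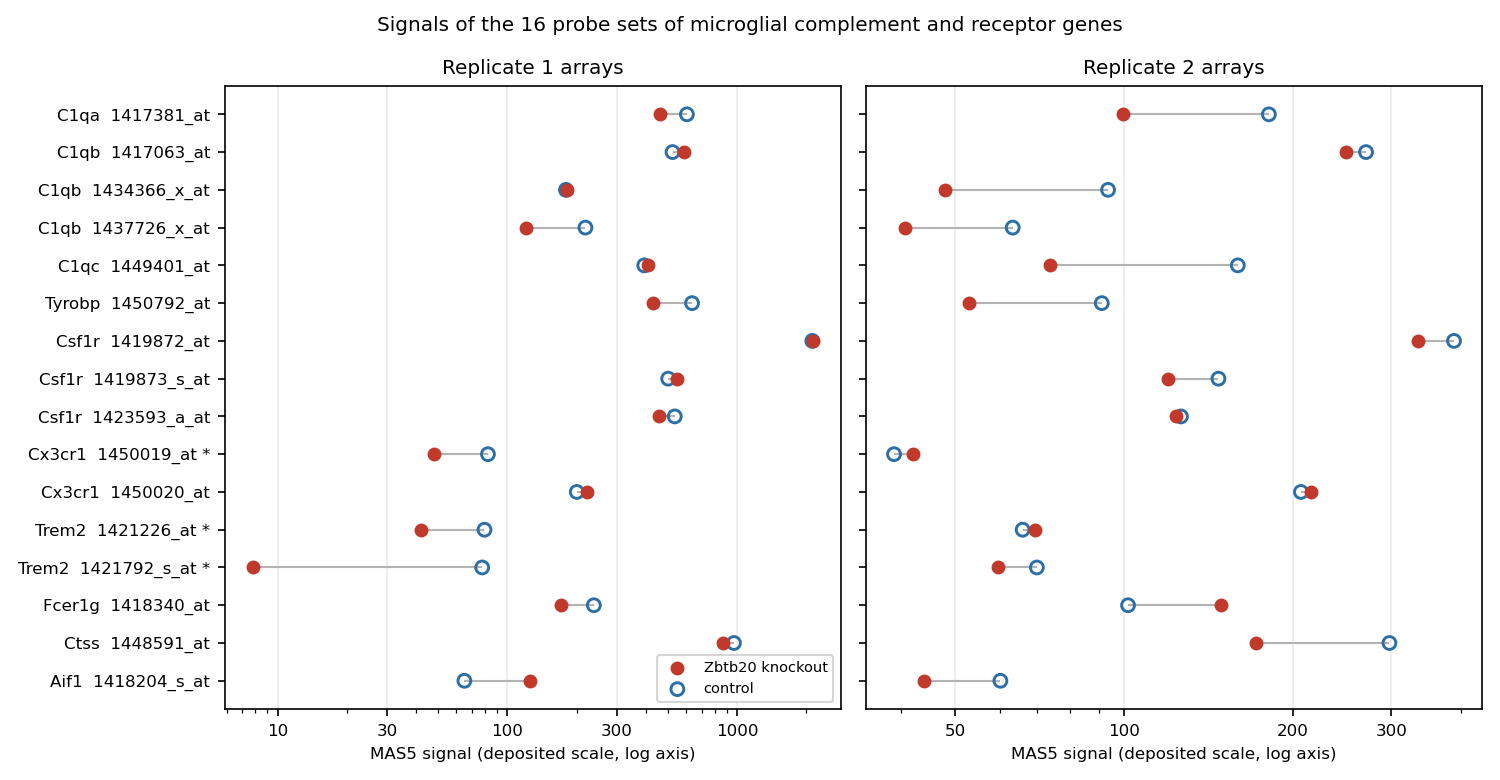
MAS5 signal on a log axis of each member probe set on the knockout array (filled) and the control array (open) of replicate 1 (left) and replicate 2 (right); an asterisk marks the 3 probe sets that did not pass the filter. In replicate 2 the knockout points of C1qa, C1qc, Tyrobp and Ctss lie left of the control points, while Fcer1g lies right and Cx3cr1 nearly on its control.

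Across all 4 arrays no member passed the test. The limma fit without the replicate number called 0 of 27022 probe sets (0%) at an adjusted p of 0.05, and 5 (0.0185%) were under an unadjusted p of 0.05, with 0 members among them. It called 0 of 13 member probe sets, each with an adjusted p of 0.9999998. Since the scale coincides with the replicate number, the fit with the replicate number as a block is given beside it: 0 of 27022 were called (0%), 0 of 13 members among them, and the smallest adjusted p was 0.9999. In that fit 330 probe sets (1.22%) were under an unadjusted p of 0.05, and 2 of the 13 member probe sets were, those of C1qa (log2 -0.53 ± 0.19, SE) and Tyrobp (-0.53 ± 0.18, SE). With 1 residual degree of freedom in the blocked fit, each estimate describes 2 differences. The SE and p draw mostly on the spread of the other probe sets, with 5.98 prior degrees of freedom.

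Counted by probe set, 11 of 13 members were lower in the knockout array of replicate 2, against 44.9% of all 27022 probe sets, and 6 of 13 in that of replicate 1, against 52.1%. Over 1.5-fold lower, on the log2(signal + 32.56) scale, were 4 of 13 in replicate 2, against 1.69%, and 1 of 13 in replicate 1, against 8.99%. Lower in both replicates were 5 of 13, against 21.6%. With 1 probe set a gene, 7 of 9 were lower in replicate 2 (50.1% of 12581 genes) and 4 of 9 in replicate 1 (51.4%). C1qa, C1qc and Ctss made up the 3 of 9 over 1.5-fold lower in replicate 2 (2.17% of genes), 0 of 9 were so in replicate 1 (8.29%), and 0 of 9 were in both (0.0318%). Tyrobp missed the cut in replicate 2 at -0.54, although its knockout signal was 0.578 of the control signal and that of Ctss 0.579. With a floor of 1 without pseudocount Tyrobp was at -0.79 there. Lower in both replicates by any amount were 3 of 9 genes, C1qa, Tyrobp and Ctss, against 24% of all genes. With the probe sets of a gene averaged, C1qb and Csf1r joined them, which gave 5 of 9 against 23.7%. The member median was 0.01 in replicate 1 and -0.28 in replicate 2, beside -0.01 and -0.00063 over all genes, and with quantile normalization it was -0.02 and -0.49 over the same 9 genes. The replicate 1 counts were thus near those of all genes, while the replicate 2 counts lay above them. The members were chosen with earlier results of these data known, so these counts are descriptions and no independent evidence. The members are genes of 1 cell type measured on the same arrays and do not count as replicates.

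Quantile normalization moved 9 of the 13 replicate 2 differences by over 1.5 times and turned the sign of 0 of them: C1qa was then at -1.13, C1qc at -1.46, Tyrobp at -0.97, Aif1 at -0.49 and Fcer1g at 0.68. Within replicate 1 it turned the sign of the small Csf1r difference at 1419872_at, to -0.02.

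**Figure D2:**
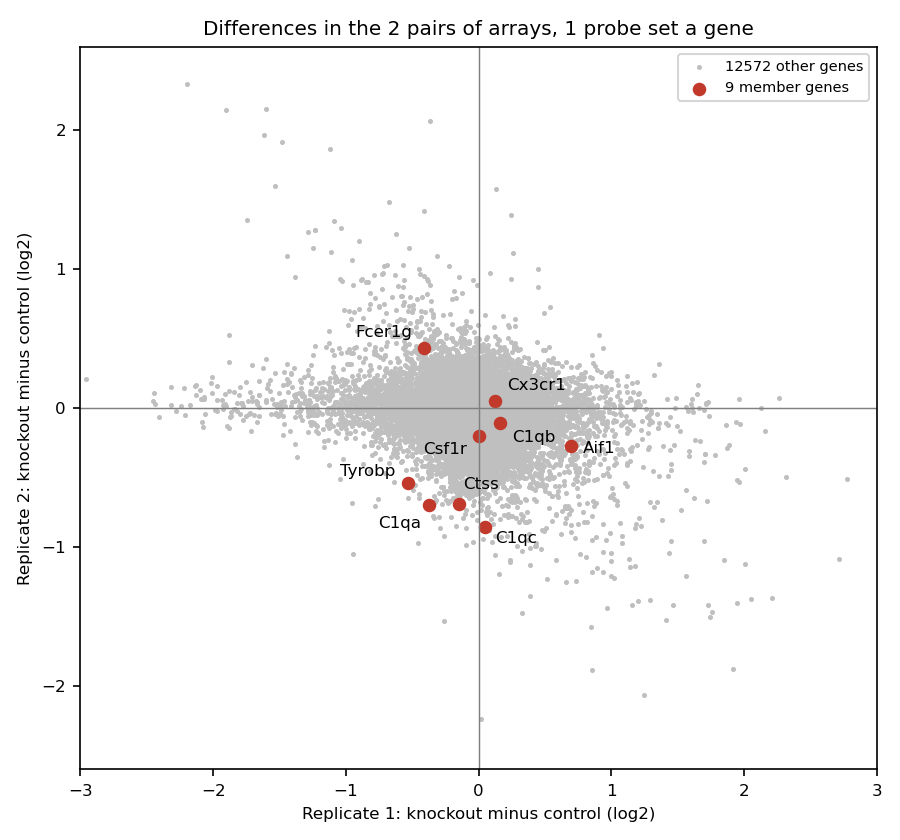
Knockout minus control (log2) in replicate 1 (horizontal) and replicate 2 (vertical) for 12572 other genes (grey) and the 9 member genes over the filter (red), 1 probe set a gene. C1qa, Tyrobp and Ctss lie below 0 on both axes, C1qc lies at -0.85 in replicate 2 and near 0 in replicate 1, and Fcer1g and Aif1 lie in opposite quadrants.

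Each of the other microglial identity genes measured had a smaller replicate 2 difference than C1qa or C1qc. Replicate 2 differences of these identity genes ran from -0.57 (Ly86) to 0.33 (Sall1), within the members' span of -0.85 (C1qc) to 0.44 (Fcer1g). Of 18 listed genes of microglial identity, 14 were measured over the filter, with medians of -0.18 in replicate 1 and -0.13 in replicate 2. In replicate 2, 10 of 14 were lower in the knockout array (50.1% of all genes), 8 with all arrays at 1 trimmed mean. Over 1.5-fold lower in the knockout array were 3 in replicate 1 (8.29% of all genes) and 0 in replicate 2 (2.17%). The count of 0 in replicate 2 depended on the setting. Ly86 passed this cut at -0.61 with all arrays at 1 trimmed mean, -0.73 with a floor of 1 and -0.98 with quantile normalization. Cd53 passed it at -0.61 with quantile normalization. Over 1.5-fold higher were 2 in replicate 1, Ly86 and Gpr34 (5.51% of all genes). Ly86, whose product pairs with the receptor CD180, had the widest difference of the list in either replicate, with 282.3 on the knockout and 124.6 on the control array of replicate 1, and 92.4 on the knockout and 153 on the control array of replicate 2 (-0.57). P2ry12, the purinergic receptor of surveying microglia, had 371.4 on the knockout and 437.2 on the control array of replicate 1, and 227 on the knockout and 230 on the control array of replicate 2 (-0.22 and -0.01). Tmem119, a microglial membrane protein, differed by -0.69 in replicate 1, and in replicate 2 it had 46.3 on both arrays, which is below the array medians. P2ry13 was at -0.63 and 0.03, the pore-forming protein gene Mpeg1 at -0.70 and -0.14, and the receptor gene Gpr34 at 0.81 and -0.21.

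Of the regulators of the myeloid lineage, 5 of 8 were measured over the filter, and 3 of 5 were lower in both replicates (24% of all genes). Irf8, a transcription factor that microglia need, was at -0.46 and -0.23, Cebpb at -0.13 and -0.28 and Runx1 at 0.34 and 0.22. Mef2c, which neurons also express, was at 0.26 and 1.12. Spi1, which encodes PU.1, did not pass the filter, with 57.9 on the knockout and 34.1 on the control array of replicate 1, and 41.5 on the knockout and 43.4 on the control array of replicate 2.

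Of 7 measured genes of phagocytic microglia, which other cells also express, 7 were lower in the knockout array of replicate 2 and 3 in that of replicate 1. Of all genes 50.1% and 51.4% were so, and the list of astrocytes below also had 7 of 7 lower in replicate 2. The list's medians were -0.28 in replicate 2 and 0.04 in replicate 1, and limma called 0 of its genes. Cathepsin L (Ctsl) was at -0.13 and -0.31, the lysozyme gene Lyz2 at -0.68 and -0.19, the galectin gene Lgals3 at 0.74 and -0.33 and the tetraspanin gene Cd9 at -0.17 and -0.28, with replicate 1 first. Of 8 genes of antigen presentation, cathepsins and their inhibitors, the 3 over the filter were higher in the knockout array of replicate 1 and lower in that of replicate 2. Of all 12581 genes, 3289 were so. Cystatin C (Cst3), a secreted cathepsin inhibitor that astrocytes also make, was at 0.02 and -0.74, cathepsin H (Ctsh) at 0.06 and -0.77 and cathepsin C (Ctsc) at 0.25 and -0.53.

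Of 7 measured ITAM partners and Fc receptors, 6 were higher in the knockout array of replicate 1 (7 with quantile normalization) and 4 in that of replicate 2 (5 with all arrays at 1 trimmed mean), with medians of 0.37 and 0.04. Of all 12581 genes, 6113 were higher in replicate 1 and 6270 in replicate 2. The kinase gene Syk was at 0.37 and 0.09, its target Plcg2 at 0.38 and 0.17, and the Fc receptor genes Fcgr1 and Fcgr2b at 0.41 and -0.14 and at 0.26 and 0.19. Fcgr3, which encodes an activating Fc receptor, was at 0.46 and -0.55. Of 5 measured ligands, Csf1 was at 0.15 and 0.06, the fractalkine gene Cx3cl1 at -0.11 and -0.01, Clu at -0.32 and -0.02 and Tgfb1 at 0.09 and 0.29. Apoe, which encodes a lipid carrier that binds TREM2 and is made mainly by astrocytes, had 728.6 on the knockout and 1555 on the control array of replicate 2 (-1.06) and was at 0.13 in replicate 1. The Il34 probe set did not pass the filter. Of 6 measured complement genes and partners of complement outside C1q, 5 were lower in the knockout array of replicate 2 (50.1% of all genes). In that of both replicates 4 were lower (24% of all genes), the C1 inhibitor gene Serping1 at -0.31 and -0.45, the regulator gene Cd46 at -0.59 and -0.02, and the partners Calr at -0.29 and -0.29 and Lrp1 at -0.04 and -0.03. Cd55 was at 0.39 and 0.14. Over the 110 measured genes of all 18 lists beside the members, limma called 0 genes with and without the block, and 6 with and 0 without it were under an unadjusted p of 0.05, beside 1.22% and 0.0185% of all probe sets. Of the 6, 5 were of the liver list, Fgb, Fgg, Fga, Apoh and Ttr, and the other was Mef2c. Fgb, Fgg, Fga and Apoh were lower in the knockout array of both replicates. Ttr, also made by the choroid plexus, was higher in both, at 0.24 and 1.39, as was Mef2c.

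**Figure D3:**
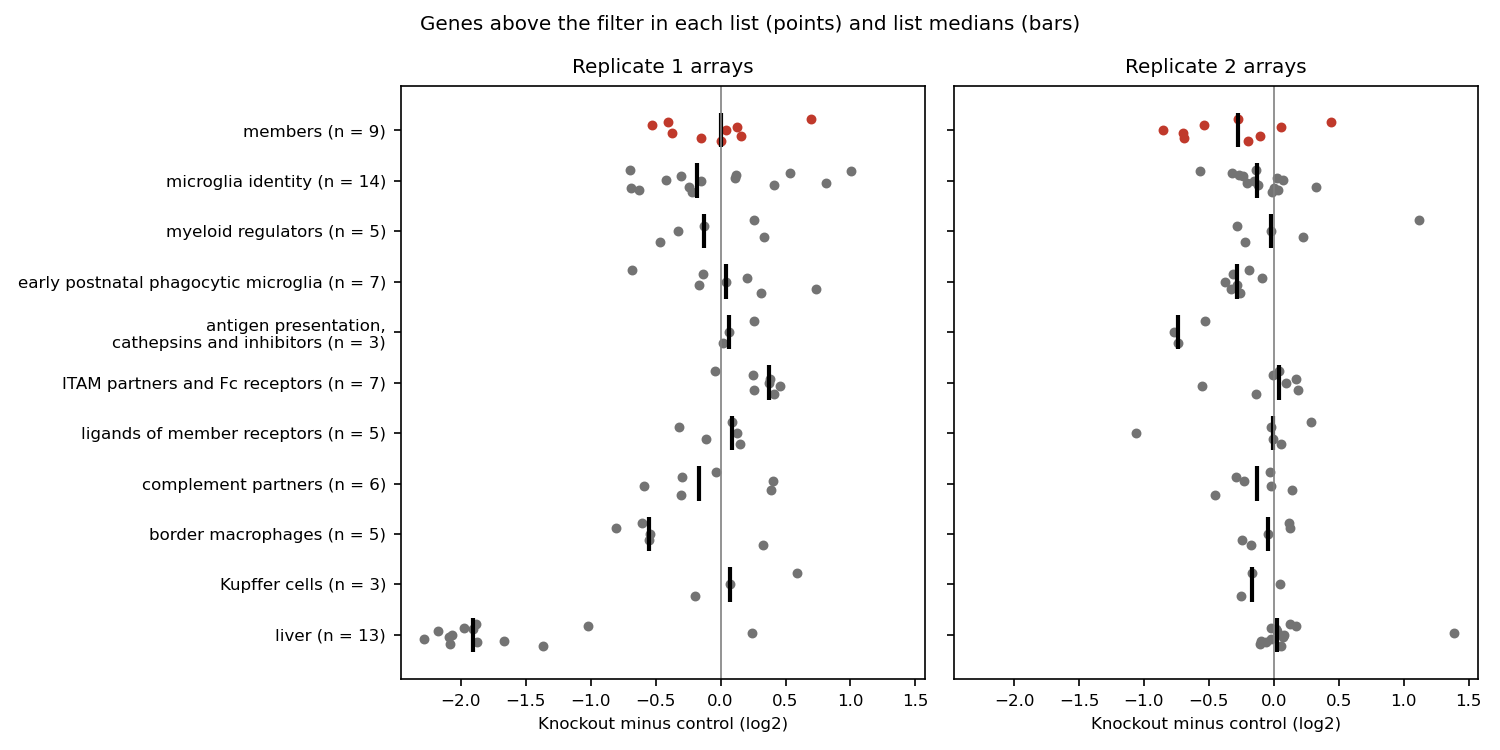
Knockout minus control (log2) within replicate 1 (left) and replicate 2 (right) for each gene over the filter in 11 lists (points), with list medians (bars). Members in red have medians of 0.01 (-0.02 with quantile normalization) and -0.28, the microglial identity list has -0.18 and -0.13, and the liver list has -1.90 and 0.02.

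Other macrophages and other tissue can carry the same transcripts, and the replicate 1 arrays carried liver transcripts. Over 13 measured liver genes the median percentile among probe sets was 74.2 on the knockout and 91.5 on the control array of replicate 1, against 21.2 on both replicate 2 arrays. The list's median difference was -1.90 in replicate 1 and 0.02 in replicate 2, with Ambp at -2.28 and -0.02 and Ahsg at -2.17 and 0.02. Of 9 genes of Kupffer cells, the liver macrophages, 3 passed the filter, and their summed signal was 875.6 on the knockout and 851.7 on the control array of replicate 1, and 367 on the knockout and 403 on the control array of replicate 2. Adgre1 was at -0.20 and -0.25, Slc40a1 at 0.07 and 0.05 and Hmox1 at 0.59 and -0.17. Among the genes of the list that did not pass the filter, signs differed in replicate 1. Clec4f, which defines these cells, had 4 on the knockout and 89.4 on the control array of replicate 1, and 41.1 on the knockout and 38.7 on the control array of replicate 2. Vsig4 had 56.8 on the knockout and 15.5 on the control array of replicate 1, and Cd5l had 35.6 on the knockout and 11.3 on the control array. In replicate 2 albumin (Alb) had 45.2 on the knockout and 42.2 on the control array. Member genes there were at -0.70 (C1qa), -0.85 (C1qc), -0.54 (Tyrobp), -0.69 (Ctss), -0.28 (Aif1), -0.20 (Csf1r), -0.11 (C1qb), 0.05 (Cx3cr1) and 0.44 (Fcer1g). The part of liver transcripts in the replicate 1 values of the members was not tested.

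Of 9 genes of the macrophages at brain borders, 5 passed the filter, and their summed signal was 858.3 on the knockout and 1225 on the control array of replicate 1, and 275 on the knockout and 287 on the control array of replicate 2. Their medians were -0.55 in replicate 1 and -0.04 in replicate 2. Mrc1, the mannose receptor gene, was at 0.33 and -0.18, Pf4 at -0.55 and -0.25, Stab1 at -0.54 and -0.04 and F13a1 at -0.80 and 0.12. Of 13 neutrophil and monocyte genes 4 passed the filter, with S100a8 at -1.08 and 0.04, Ccr2 at -1.18 and 0.04 and Mpo at 1.22 and -0.16. Of 10 lymphocyte and mast cell genes 1 passed, Cpa3 at -0.40 and 0.13, and of the red blood cell list Alas2 alone, at -0.28 and -0.31. The part of these cells in the members' values was not tested.

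Among the lists of the tissue's other cells, that of astrocytes had the replicate 2 median farthest from 0. All 7 astrocyte genes were lower in the knockout array of replicate 2 (6 of 7 with quantile normalization), where 50.1% of all genes were. Their median was -0.31 there against 0.05 in replicate 1. Slc1a3 was at 0.05 and -0.36, Slc1a2 at 0.77 and -0.31 and Gfap at -0.10 and -0.41. Aqp4 had the widest differences of the astrocyte list in both replicates, of opposite sign, at 1.46 and -1.42. The 9 neuronal genes had medians of 0.20 and -0.08, the replicate 2 value reaching 0 with quantile normalization, with Rbfox3 at 0.35 and -0.82, Gad1 at 0.25 and -0.68 and Map2 at 0.19 and 0.44. The 5 oligodendrocyte genes had medians of 0.06 and -0.01, the replicate 2 value turning sign with quantile normalization and with all arrays at 1 trimmed mean, and Pdgfra was at 0.06 and 0.14. The 7 endothelial genes had medians of -0.31 and 0.02, the replicate 2 value turning sign with quantile normalization, with Cdh5 at -0.78 and -0.01. The 8 hippocampal genes had medians of 0.11 and 0.06, among them Prox1 at 0.38 and 0.07 and Lef1 at -0.49 and 0.06.

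Genes outside the members whose pair of differences lay nearest to the median pair of the C1q genes (0.05 in replicate 1 and -0.70 in replicate 2) were taken from 12572 genes by Euclidean distance. They were Bex3 at a distance of 0.02, Naa38 at 0.03, Ppp1r11 at 0.03, the respiratory chain gene Cox5b at 0.04 and Cst3 at 0.05. The likeness rests on 2 differences from 4 arrays.

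**Figure D4:**
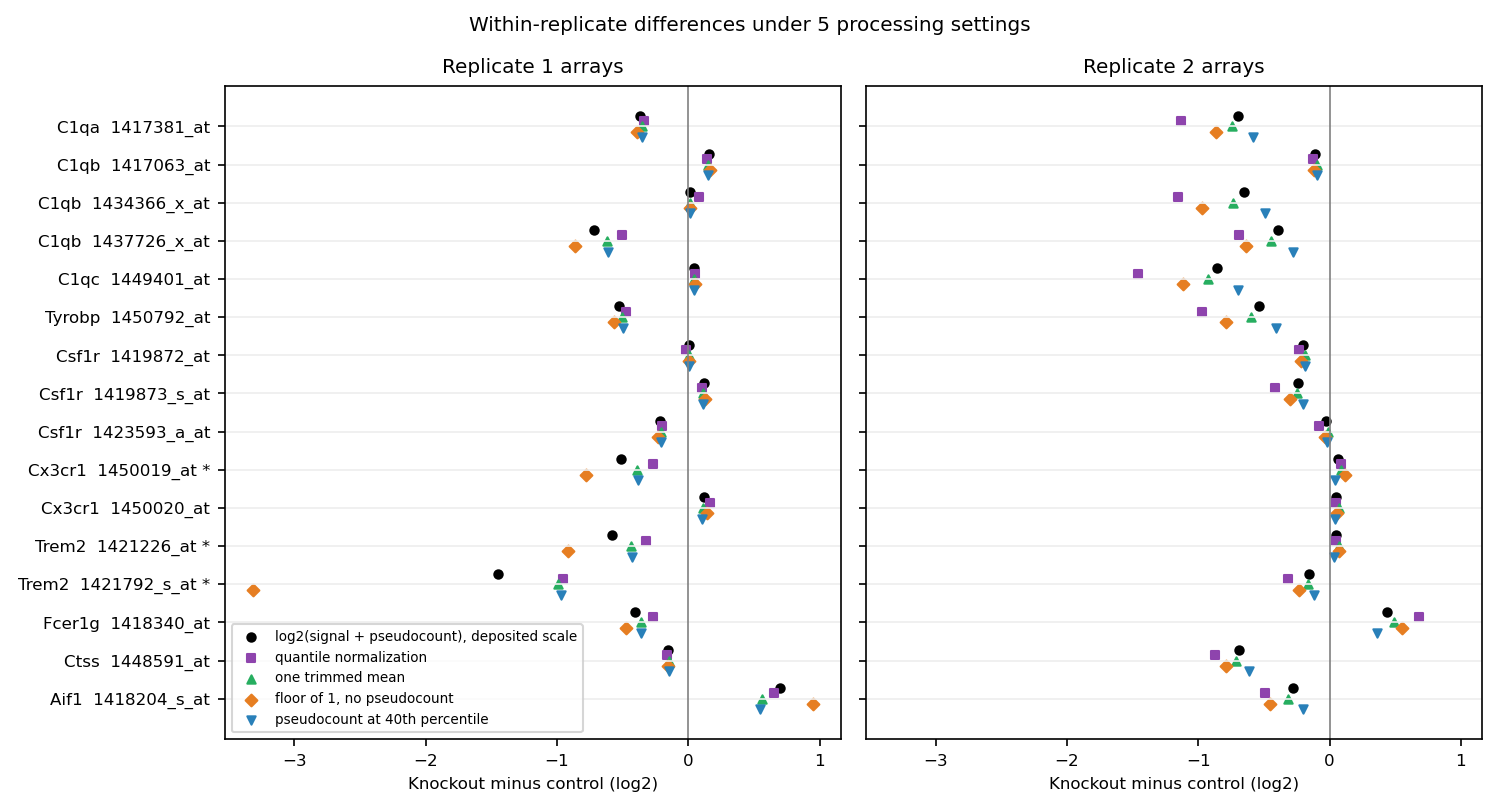
Knockout minus control (log2) of each member probe set in replicate 1 (left) and replicate 2 (right) under 5 processing settings; an asterisk marks probe sets that did not pass the filter. C1qa, C1qc, Tyrobp and Ctss stay below 0 in replicate 2 under each setting shown, and the widest shift between settings is at the dim Trem2 probe set 1421792_s_at in replicate 1.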

How the data were processed

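The authors deposited signal intensities on a linear scale for 45037 probe sets on 4 arrays, which per the submitters' processing notes came from MAS5; the version, scaling target and genome build are not given in the sources used here. Gene symbols came from GEO's annotation of the platform, and the members matched the RefSeq gene table by Entrez ID for 10 of 10 genes. From the deposited values, log2(signal + 32.56) was computed, where 32.56 is the 20th percentile of all values. A filter on the mean, at the 40th percentile, left 27022 probe sets, which were tested with limma 3.58.1 in R 4.3.3 (lmFit and eBayes with trend, knockout minus control, Benjamini-Hochberg adjustment, threshold 0.05), without a covariate. Since the scale splits the arrays by replicate number, each replicate's own values and a blocked fit are given as well. A gene was represented by its probe set over the filter with the highest mean (12581 genes). An exact permutation test of 2 arrays against 2 cannot go below a two-sided p of 0.333 and was not used. Alternatives were quantile normalization, 1 trimmed mean for all arrays, a floor of 1 without pseudocount, no filter, a filter at the 60th percentile, a pseudocount at the 40th, averaging the probe sets of a gene, robust eBayes, eBayes with no trend, the block, and dropping each array in turn. The limma step was run on simulated data with independent normal noise, and its power on the real arrays was not measured. Named genes were all member probe sets, up to 4 genes of each list with the largest absolute mean of both differences, and Spi1, Csf1, Il34, Cx3cl1, P2ry12, Tmem119, Clec4f and Mrc1. The 5 genes nearest to the C1q median pair were added. Alb, Ly86, Cd53, Sall1, Aqp4, Fcgr3, Vsig4, Cd5l, Fgg, Fga, Apoh and Ttr were picked with their values in view. The members and lists were chosen with earlier results of these data known. Precision is limited by having 4 arrays.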

Additional observations from a re-analysis of the deposited data

How the results depend on the processing

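The counts of 0 called probe sets and 0 called members held in limma under the 10 alternatives that kept all 4 arrays. The replicate number as a block was among them (0 of 27022 and 0 of 13). An unadjusted p under 0.05 was reached by 0 to 330 probe sets in the planned ones. With quantile normalization and the replicate block, an alternative added after seeing the data, it was reached by 411. In the main fit the spread held both scales, and standard errors of member probe sets ran from 0.58 (Aif1) to 1.64 (Csf1r, 1419872_at) log2. These were wide beside the members' mean differences, so the 0 called cannot tell no difference from a missed one. No label ties a replicate number to a litter or day, and deviations of same-numbered arrays correlated at 0.837 across probe sets. With the filter set anew under each setting, the member median stayed between -0.45 and -0.20 in replicate 2 (-0.24 with quantile normalization, where Trem2 passed the filter in place of Aif1), and in replicate 1 it lay between -0.16 and 0.01, turning negative with quantile normalization, no filter, the stricter filter and averaging over probe sets. Leaving out 1 array sets arrays of both scales against each other, and the mean difference then spanned -1.48 to 0.42 for C1qa, -0.55 to 0.60 for C1qb, -1.43 to 0.62 for C1qc, -1.75 to 0.69 for Tyrobp, -1.38 to 1.18 for Csf1r, -0.49 to 0.52 for Fcer1g and -1.49 to 0.65 for Ctss, turning sign for each. Aif1 spanned -0.31 to 0.73, its value below 0 being that without the knockout array of replicate 1, where its probe set missed the filter and was not tested. Cx3cr1 (0.07 to 0.11) kept its sign. Averaging the probe sets of a gene, added for single genes after seeing the data, turned C1qb to -0.28. The other alternatives kept the sign of the mean difference of the 9 genes, with Aif1 below the filter at the 60th percentile and after quantile normalization. The limit is dim signal for Trem2, Aif1 and the C1qb probe set 1437726_x_at.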
